A study of Mus musculus with 9 samples.

Results

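Anti-Müllerian hormone and its receptor are encoded by Amh and Amhr2. The 2 genes were taken by name from the deposited FPKM tables, in which fragment counts are scaled by exon length and sequencing depth. The tables list 52025 genes, and Amh and Amhr2 were detected in every library. They were followed through the first antrum formation in the follicle (iFFA), the step in which a fluid-filled cavity first opens in the growing follicle. Ovaries of juvenile Kunming mice, an outbred strain, were collected untreated on postnatal day (PD) 14, PD15 and PD16, and the study placed the earliest antra on PD15. The data comprised 9 RNA-Seq libraries, 3 for each day, and the study describes the replicates as biologically independent ovaries. The labels give the tissue as ovary but the source as granulosa cells. Oocyte transcripts were abundant, since Zp3, a protein of the egg coat, had a mean of 349 FPKM on PD14, 401 on PD15 and 276 on PD16, and the libraries are therefore described as ovaries.

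AMH is a secreted member of the TGF-beta family that granulosa cells of growing follicles make, from the primary follicle up to the small antral follicle. It binds AMHR2, a type II receptor that serves AMH alone, and this pair recruits the type I receptors ACVR1, BMPR1A or BMPR1B, which phosphorylate SMAD1, SMAD5 and SMAD9. In the ovary AMH is known to restrain the recruitment of primordial follicles and to dampen the response of growing follicles to follicle-stimulating hormone (FSH). In ovarian RNA, a change in the number of granulosa cells cannot be told apart from a change in transcript per cell.

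Amh (ENSMUSG00000035262) lies on the plus strand of chr10:80805243-80807648 of GRCm38, the mm10 build, and GENCODE M21 gives it 1 transcript with 1670 bp of exons. Amhr2 (ENSMUSG00000023047) lies on the plus strand of chr15:102445367-102454633, with 5 transcripts that cover 2005 bp of exons. No other annotated gene overlaps either of them. Of the 2 genes, 1 (Amhr2) was matched in the RefSeq promoter sequences, and the promoter of Amh was not analysed here. The promoter of Amhr2 is shown because factors that could bind it, GATA4, GATA6 and NR5A1, were measured in the same libraries and are described further on. The RefSeq sequence of the 250 bases before the annotated start (GRCm38.p6, chr15:102445117-102445366, plus strand) is given with letter matches in capitals.

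Amhr2: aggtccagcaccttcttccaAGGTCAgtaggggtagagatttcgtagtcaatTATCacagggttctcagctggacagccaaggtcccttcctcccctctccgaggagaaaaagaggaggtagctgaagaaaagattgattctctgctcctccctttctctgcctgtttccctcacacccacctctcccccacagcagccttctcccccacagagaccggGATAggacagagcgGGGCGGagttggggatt

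The capitals mark AGGTCA, the core letters read by NR5A1 and other nuclear receptors, at -230 to -225 from the start, GATA at -31 to -28, the reverse complement of GATA at -198 to -195, and GGGCGG, the letters read by SP1, at -17 to -12. Both strands were searched, and ACAAT and ACAAAG (SOX factors) and GTAAACA (forkhead factors) were not found in this window. Of 32851 promoter windows of this length, 53.6% held GATA, 14.0% held AGGTCA, 32.7% held GGGCGG, 27.7% held ACAAT, 16.5% held ACAAAG and 3.17% held GTAAACA. These matches describe letters, and the motifs do not overlap each other.

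Amh was higher on PD15 and PD16 than on PD14. On PD14 the libraries had 186.1, 174.9 and 167.7 FPKM, with a mean of 176.2 ± 9.31 (SD, n = 3). On PD15 they had 261.0, 243.1 and 222.4 FPKM, with a mean of 242.2 ± 19.4 (SD, n = 3). On PD16 they had 256.0, 235.1 and 244.4 FPKM, with a mean of 245.2 ± 10.5 (SD, n = 3). Every PD15 and PD16 library was above every PD14 library, whereas the PD15 and PD16 libraries overlapped, so that the order of the days was PD14 below PD15 and PD16. The mean FPKM was 1.37 times the PD14 mean on PD15 and 1.39 times on PD16.

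The changes were tested by limma on log2(FPKM + 1), with the 9 libraries in 1 model and Benjamini-Hochberg adjustment over the 15495 genes whose mean FPKM exceeded 1 on any of the days. The added 1 makes fold changes smaller than those of FPKM, slightly for abundant genes such as Amh and Amhr2 and more for genes of low FPKM. From PD14 to PD16, Amh rose by 0.47 on the log2 scale (95% interval 0.29 to 0.66, adjusted p = 0.0223), and 2.36% of the genes tested rose at an adjusted p under 0.05. From PD14 to PD15 the difference was 0.45 (95% interval 0.27 to 0.64) and missed the threshold (limma, adjusted p = 0.0522), and 0.336% of the genes tested passed it upward. Libraries without overlap were found upward for 10.4% of the genes tested between PD14 and PD15 and for 15.0% between PD14 and PD16. The levels of PD16 and PD15 differed by 0.020 (95% interval -0.17 to 0.21, limma, adjusted p = 0.951), which does not show that they are equal. Among the genes tested, 376 were higher on PD15 by at least as much as Amh, and 369 on PD16. The median log2 change over all genes tested was within 0.0093 of 0 in every comparison.

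The call of Amh on PD16 was lost in some fits that left out a library, while the size of its change was kept. The adjusted p of limma became 0.0504 without PD14 replicate 1, 0.0848 without PD14 replicate 3 and 0.0789 without PD16 replicate 1, with log2 changes of 0.51, 0.44 and 0.44. In these fits 192, 116 and 92 of all genes tested were called, against 659 with all libraries. In the other 6 fits that left out a library, the call was kept. It was also lost with the values scaled to TPM (limma, adjusted p = 0.0588) and without the expression filter (limma, adjusted p = 0.0623).

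Amhr2 was lower on PD16 than on PD14, but the difference did not pass the test across all genes. On PD14 the libraries had 105.6, 120.1 and 122.1 FPKM, with a mean of 116.0 ± 8.98 (SD, n = 3). On PD15 they had 100.8, 107.6 and 98.1 FPKM, with a mean of 102.2 ± 4.86 (SD, n = 3). On PD16 they had 91.9, 102.1 and 87.6 FPKM, with a mean of 93.9 ± 7.47 (SD, n = 3). All PD16 libraries were below all PD14 libraries, as for 13.5% of the genes tested, while neighbouring days overlapped. The PD16 mean was 0.81 times the PD14 mean in FPKM. In limma the log2 difference between PD16 and PD14 was -0.30 (95% interval -0.49 to -0.12, adjusted p = 0.0732), and 1.89% of the genes tested passed the threshold downward. The difference was -0.18 between PD15 and PD14 (95% interval -0.37 to 0.01, limma, adjusted p = 0.359) and -0.12 between PD16 and PD15 (95% interval -0.31 to 0.06, limma, adjusted p = 0.561).

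**Figure D1:**
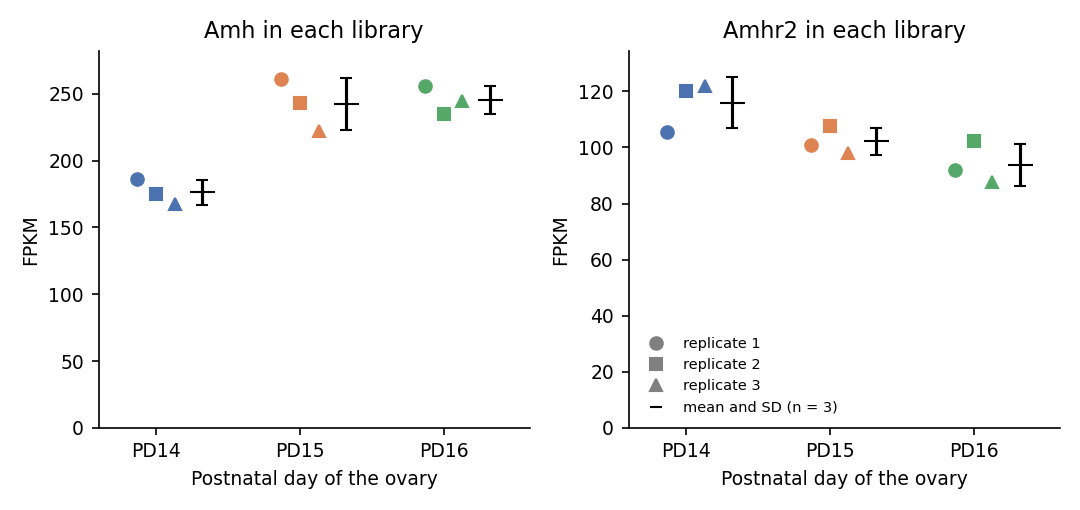
FPKM (linear axis from 0) of Amh (left) and Amhr2 (right) in each of the 9 libraries by postnatal day, with symbols for the replicates and bars for the mean and SD of 3 libraries. The Amh libraries of PD15 and PD16 all lie above those of PD14, whereas the Amhr2 libraries of PD16 all lie below those of PD14.

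Single values were also compared by two-sided exact permutation tests, in which 3 libraries against 3 cannot give a p below 0.10. Amh reached this smallest p on PD15 and PD16 against PD14, and Amhr2 on PD16 against PD14. For the exact test among the 3 days, over 280 groupings, p was 0.0321 for Amh and 0.0286 for Amhr2, both 0.0482 after adjustment over the 6 measures tested this way. limma's F test among the days gave an adjusted p of 0.0293 for Amh and 0.134 for Amhr2. With each library left out in turn, that of Amh was 0.0276 to 0.104, and under 0.05 only without PD15 replicate 3. It also exceeded 0.05 with the values scaled to TPM, without the expression filter and with a block for the replicate number.

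Hormone and receptor transcripts moved apart within the libraries. The ratio of Amh to Amhr2 in FPKM, a scale that takes account of transcript length, was 1.76, 1.46 and 1.37 in the PD14 libraries. It was 2.59, 2.26 and 2.27 in the PD15 libraries and 2.78, 2.30 and 2.79 in the PD16 libraries. No PD14 library reached a PD15 or PD16 library. The log2 ratio was higher by 0.63 on PD15 and by 0.78 on PD16, each at the smallest p of 0.10 that this exact test allows, and by 0.14 on PD16 over PD15 (exact p = 0.20). Among the 3 days the exact p was 0.00714, adjusted 0.0429 over the 6 measures. The PD14 libraries stood apart in Amh, so no pooled correlation of the levels was computed. The deviations of the 2 genes from their day means had r = -0.375 over the 9 libraries, given as a description without a test. Within the 6 libraries of PD15 and PD16, Pearson's r of log2(FPKM + 1) between the 2 genes was -0.157 (exact permutation p = 0.779) and Spearman's rho -0.257 (exact permutation p = 0.658), and r was -0.508 without the 2 libraries farthest from the median of Amh. No relation between the 2 genes was detectable among these libraries.

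Both genes are transcribed in granulosa cells, so their levels were set against 19 granulosa cell markers that hold neither of them. The summed FPKM of these markers was 3761 to 4544 on PD14, 3546 to 3862 on PD15 and 3651 to 4350 on PD16, and none of the markers was at 0. The largest part of these sums came from 1 gene, Inha, with a mean of 2152 FPKM over the 9 libraries. The mean log2(FPKM + 1) of the 19 markers was 6.26, 6.13 and 6.18 on the 3 days (exact p among days = 0.207, adjusted 0.207). On PD15 this mean was lower than on PD14 by 0.12 without overlap between the libraries (exact p = 0.10, the smallest possible). Of the 19 markers, none was called by limma on PD15, where 0.678% of all genes tested were called, and 5 had an unadjusted p under 0.05, as 14.7% of all genes tested did. On PD16, where 4.25% of all genes tested were called, 5 of the 19 were called and 10 had an unadjusted p under 0.05, as 22.8% of all genes tested did. Bex4 and Esr2 rose and Cyp19a1, Kctd14 and Kitl fell against PD14. On PD15 7 of the 19 markers were higher than on PD14 and 12 were lower. The lower ones included Inhba, with a large difference (-0.92, limma, adjusted p = 0.166). FOXL2 maintains granulosa cell identity, and Foxl2 had means of 142 FPKM on PD14, 172 on PD15 and 139 on PD16, with no call. Every PD15 library of Foxl2 was above every PD14 library (log2 difference 0.27, limma, adjusted p = 0.191), as for 10.4% of the genes tested. Fshr, the FSH receptor, had means of 14.2, 12.8 and 17.9 FPKM, also with no call. Its PD16 libraries were all above those of PD15 (log2 difference 0.44, limma, adjusted p = 0.159), as for 9.85% of the genes tested. Its PD14 libraries overlapped those of both later days. The study reported a rise of this gene during iFFA from its RNA-Seq and qRT-PCR.

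Relative to the mean of these markers, which was itself lower on PD15, Amh was higher by 0.58 on PD15 and by 0.55 on PD16 on the log2 scale, without overlap between the libraries (exact p = 0.10 each, the smallest possible; 0.025 among the days, adjusted 0.0482). Amhr2 was lower by 0.06 on PD15 and by 0.22 on PD16, and its PD14 libraries overlapped those of both later days (exact p = 0.60 and 0.20). Between PD15 and PD16 it was lower by 0.17 on PD16 without overlap (exact p = 0.10, the smallest possible), and among the days the exact p was 0.118 (adjusted 0.141). The sizes depended on how the markers were averaged, since with their median in place of their mean the PD16 values were 0.28 for Amh and -0.50 for Amhr2. The direction was the same with either average.

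**Figure D2:**
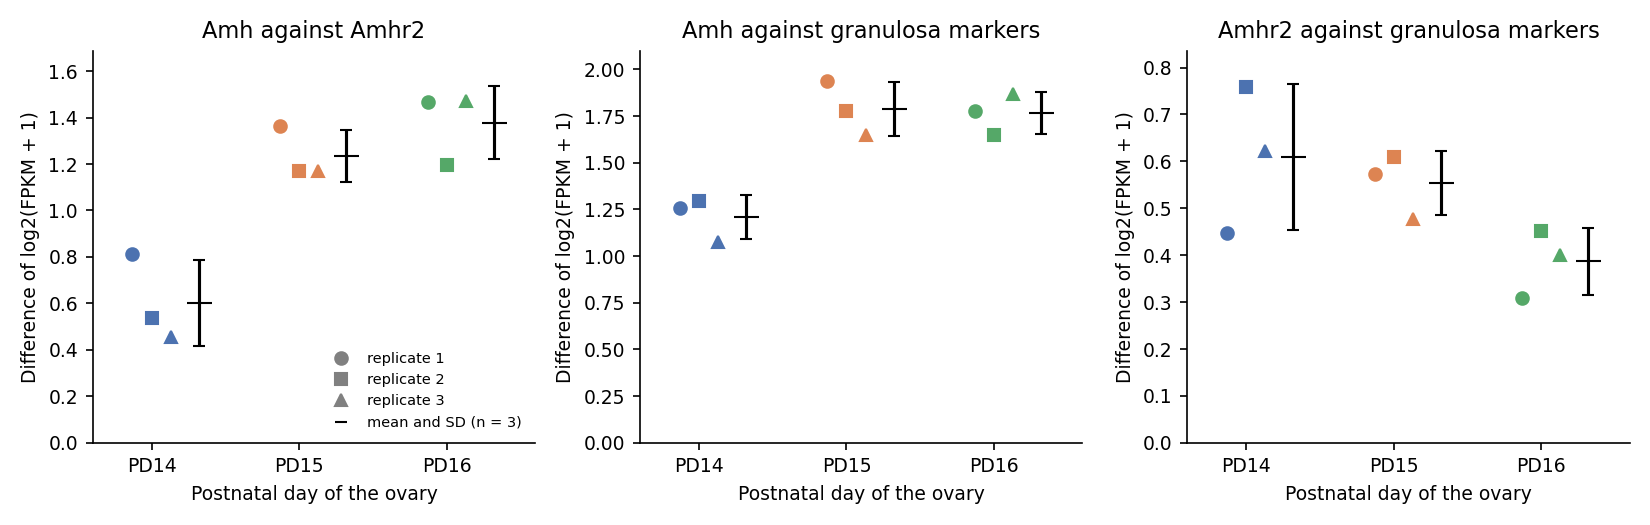
Difference of log2(FPKM + 1) in each library between Amh and Amhr2 (left), Amh and the mean of 19 granulosa cell markers (middle) and Amhr2 and the same mean (right), by postnatal day, with symbols for replicates and bars for the mean and SD of 3 libraries. PD14 lies below PD15 and PD16 in the left and middle plots, and in the right plot the PD14 and PD16 libraries overlap.

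Markers of other cells also differed between the days, and their part in the levels of Amh and Amhr2 was not tested. The summed FPKM of 20 oocyte markers was 2034 to 2507 on PD14, 2554 to 2736 on PD15 and 1895 to 2049 on PD16. All 20 were lower on PD16 than on PD15, a comparison in which 53.1% of all genes tested were higher on PD16. Of the 20, Nlrp5 and Zp2 were called, where 0.729% of all genes tested were called. Nlrp5 was also called higher on PD15 than on PD14, where 0.336% of all genes tested passed upward. For 12 theca and interstitial cell markers the sum was 1991 to 2674, 1531 to 2178 and 1559 to 2050, with none called against PD14. Hsd3b1, a steroid dehydrogenase gene, made up most of these sums (means of 1785, 1291 and 1273 FPKM). Of the 12, 4 were higher on PD15 than on PD14, and 7 were higher on PD16 than on PD14. For 12 blood and immune cell markers the sum was 124 to 165 on PD14, 63.7 to 84.3 on PD15 and 81.7 to 136 on PD16. Hba-a1, a haemoglobin gene, was called lower on PD15 than on PD14, where 0.678% of all genes tested were called in either direction. The sum of 8 endothelial cell markers was 104 to 118, 93.5 to 101 and 89.8 to 97.6. All 8 had a lower mean on both later days than on PD14, where 51.9% of all genes tested were higher on PD15 and 52.2% on PD16. Tie1 was called lower on PD16 than on PD14 (-0.25, limma, adjusted p = 0.0458), where 1.89% of all genes tested passed downward. Stromal (11 markers), smooth muscle (8) and epithelial (12) lists had sums that overlapped between PD14 and PD16. Among them, limma called Cnn1 of smooth muscle higher on PD16 than on PD14 (0.61, adjusted p = 0.0348), where 2.36% of all genes tested passed upward. Rgs5 of pericytes (-0.62, limma, adjusted p = 0.0294) and Krt19 of epithelium (-0.42, limma, adjusted p = 0.0335) were called lower on PD16 than on PD14. Mfap5 of the stroma was called higher on PD16 than on PD15, where 0.729% of all genes tested were called. No marker of any list was at 0 in all libraries. Among their defining genes, Col1a1 of the stroma had 98, 91 and 97 FPKM, Pecam1 of the endothelium 11.90, 10.85 and 10.67, and Cyp17a1 of the theca 28.9, 21.6 and 37.1. Ptprc of leukocytes (at most 0.127 FPKM) and Ovgp1 of the oviduct (at most 0.779) were close to 0.

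Amh was among the most abundant transcripts of the ovary. By FPKM it ranked between 202 and 243 of all genes in the PD14 libraries, between 124 and 169 on PD15 and between 128 and 147 on PD16. Amhr2 ranked between 336 and 403, 383 and 472, and 436 and 496 on the same days. Of the summed FPKM of a library, Amh held 0.0506% to 0.0586% on PD14, 0.0649% to 0.0831% on PD15 and 0.0720% to 0.0788% on PD16. For Amhr2 the shares were 0.0332% to 0.0390%, 0.0286% to 0.0344% and 0.0272% to 0.0313%. The shares of Amh did not overlap between PD14 and the later days, and those of Amhr2 did not overlap between PD14 and PD16. From the step of a single fragment in the low FPKM, the libraries were estimated to hold 20.3 to 28.7 M mapped fragments (median 24.1 M), of which 5697 to 11091 fell on Amh and 4392 to 5808 on Amhr2. The counting error was thus 0.950% to 1.32% of the level for Amh and 1.31% to 1.51% for Amhr2, against a coefficient of variation within days of 4.27% to 7.99% and 4.76% to 7.96%.

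Among 24 ligands of the TGF-beta family, Amh ranked 4 in every PD14 library, 3 in every PD15 library and 2 in every PD16 library by FPKM. Inha, the alpha subunit of the inhibins, was first in all libraries with a mean over the days of 2152 FPKM. Gdf9, an oocyte factor that drives follicle growth, had a mean of 242 ± 30.6 FPKM (SD, n = 3) on PD14, 260 ± 20.2 on PD15 and 212 ± 7.68 on PD16. Inhbb, the beta B subunit of inhibin and activin, had 195 ± 12.4, 197 ± 27.0 and 176 ± 28.3 FPKM. Amh lay below both of these genes on PD14 and above both on PD16, while the limma differences of Gdf9 (-0.18, adjusted p = 0.351) and Inhbb (-0.15, adjusted p = 0.535) between PD16 and PD14 were not called. The next ligand was Bmp15, another oocyte factor, with a mean over the days of 60.2 FPKM. Mean levels of the other 19 ligands ranged from 0.00181 FPKM (Mstn) to 56.9 FPKM (Inhba, the beta A subunit). Of these, Gdf10 was called, with 5.21, 4.18 and 3.33 FPKM on PD14, 2.22, 2.20 and 2.61 on PD15, and 4.57, 6.57 and 4.94 on PD16. It rose by 0.92 from PD15 to PD16 (limma, adjusted p = 0.0362), where 0.729% of all genes tested were called. Its PD16 libraries overlapped those of PD14.

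Amhr2 was the most abundant of 5 type II receptors in all 9 libraries, with 2.94 to 6.35 times the FPKM of the next one. Bmpr2, which binds bone morphogenetic proteins, had 19.1, 18.9 and 19.3 FPKM on PD14, 19.0, 19.6 and 20.3 on PD15, and 29.8, 25.5 and 29.8 on PD16. Its PD16 libraries all stood above the others, which was so upward for 9.85% of the genes tested between PD15 and PD16. Bmpr2 rose by 0.54 from PD14 to PD16 (limma, adjusted p = 0.00877) and by 0.50 from PD15 to PD16 (limma, adjusted p = 0.0213). The former call was kept in each of the 9 fits that left out a library, whereas the latter was lost in 4 of them, without PD15 replicate 1, PD15 replicate 2, PD16 replicate 1 or PD16 replicate 3 (limma, adjusted p = 0.0508 to 0.0828). Tgfbr2, the TGF-beta receptor, had means of 13.19, 11.98 and 13.57 FPKM. The activin receptors Acvr2a (5.58, 6.46 and 6.09 FPKM) and Acvr2b (2.68, 2.50 and 2.50 FPKM) were lower still, and none of these 3 genes was called.

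**Figure D3:**
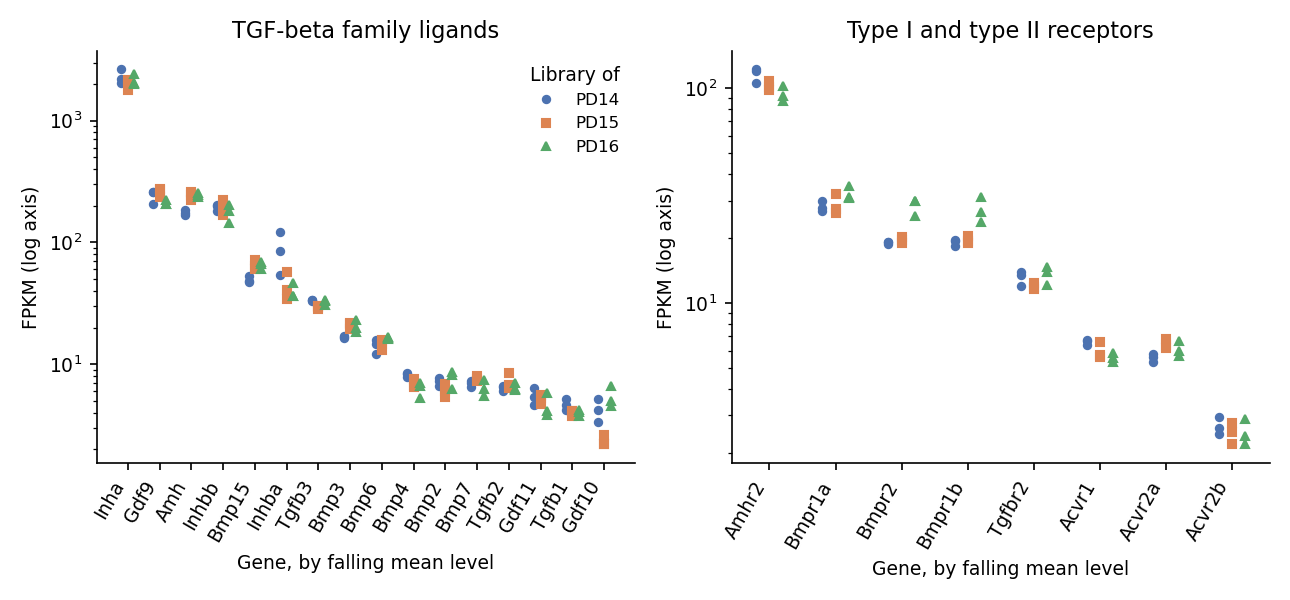
FPKM on a log axis of the 16 most abundant TGF-beta family ligands (left) and of the type I and type II receptors described in the text (right), with 1 point for each library and symbols for the days. Within each library Amh ranks below Gdf9 and Inhbb on PD14 and above both on PD16, and Amhr2 lies above all other receptors shown in every library.

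The other genes of the pathway came from 8 lists with 60 genes, of which 56 passed the expression filter. On PD15 none of the 56 was called by limma against PD14 (14 had an unadjusted p under 0.05, as did 14.7% of all genes tested), where 0.678% of all genes tested were called. On PD16 7 were called, 5 upward and 2 downward, and 26 had an unadjusted p under 0.05, where 4.25% of all genes tested were called and 22.8% had such a p, and 1 was called between PD15 and PD16, where 0.729% were. Their median log2 change was -0.0068 on PD15 and -0.07 on PD16 against PD14.

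Of the 3 type I receptors that AMH uses, Bmpr1b was called. It had 18.5, 19.7 and 19.4 FPKM on PD14, 19.4, 20.5 and 19.0 on PD15, and 31.1, 23.9 and 26.5 on PD16. The first 2 days overlapped and PD16 stood above both, with a rise of 0.47 from PD14 (limma, adjusted p = 0.0240). Bmpr1a was the most abundant of the 3, with means of 28.1, 28.6 and 32.4 FPKM, and its PD16 difference was 0.19 (limma, adjusted p = 0.220). Acvr1, known as ALK2, had 6.59, 5.97 and 5.58 FPKM, and its PD16 difference was -0.21 (limma, adjusted p = 0.106).

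None of the 5 SMAD transcripts tested was called. Smad5 (means of 29.1, 29.0 and 27.6 FPKM) was higher than Smad1 (6.80, 6.83 and 6.44 FPKM), the other receptor-activated SMAD of this branch that was tested. Smad9, with 0.453, 0.544 and 0.812 FPKM, was under the filter. Smad4, the partner of all receptor-activated SMADs, had 36.7, 39.7 and 41.3 FPKM, a PD16 difference of 0.17 (limma, adjusted p = 0.118). The inhibitory Smad6 (3.58 to 4.10 FPKM) and Smad7 (4.69 to 5.24 FPKM) were low on all days.

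Among 10 genes known to be induced by SMAD1, SMAD5 and SMAD9, 8 were tested and Id3 was called. Id3 encodes an inhibitor of basic helix-loop-helix factors, and it had 55.5, 47.1 and 49.7 FPKM on PD14, 66.1, 83.0 and 72.2 on PD15, and 84.2, 71.0 and 88.2 on PD16. Both later days lay above PD14 without overlap, as for Amh. The same held for 10.4% of the genes tested on PD15 and 15.0% on PD16. Id3 rose by 0.66 from PD14 to PD16 (limma, adjusted p = 0.0177), and its PD15 difference was 0.53 (limma, adjusted p = 0.0750). The related Id1 had means of 29.7, 36.5 and 38.4 FPKM, with a PD16 difference of 0.36 (limma, adjusted p = 0.0935). Id2 had 53.2, 70.7 and 64.5 FPKM, with a PD16 difference of 0.28 (limma, adjusted p = 0.219). Id4, Bambi, Nog, Hey1 and Smurf1 were between 1.61 and 12.6 FPKM by day mean, with no call, and Msx1 and Msx2 were under the filter.

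AMH is made as a precursor that proprotein convertases cut. Of the 4 convertase genes listed, Pcsk6 was the most abundant, with means of 62.8, 65.5 and 50.9 FPKM and a PD16 difference of -0.30 (limma, adjusted p = 0.191). Furin (10.21, 10.43 and 10.76 FPKM), Pcsk5 (16.6, 14.5 and 15.2 FPKM) and Pcsk7 (5.82 to 6.0 FPKM by day mean) were not called either.

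Of 14 transcription factors known to act on Amh or Amhr2, 13 were tested, and Esr2 was called, upward on PD16. Esr2, the estrogen receptor of granulosa cells, had 46.7, 55.2 and 53.9 FPKM on PD14, 56.2, 61.0 and 54.7 on PD15, and 71.5, 71.3 and 75.9 on PD16, a rise of 0.48 (limma, adjusted p = 0.0151). Only the PD16 libraries of Esr2 stood apart. NR5A1, GATA4, GATA6 and SP1, named above with the promoter of Amhr2, had genes that were not called. Nr5a1, also called SF-1, had means of 62.0, 55.2 and 51.4 FPKM (PD16 difference -0.27, limma, adjusted p = 0.0662). Gata4 had 82.6, 87.6 and 67.9 FPKM (PD16 difference -0.28, limma, adjusted p = 0.0620). Gata6 had 46.2, 45.4 and 36.9 FPKM (PD16 difference -0.33, limma, adjusted p = 0.0976). All PD16 libraries were below all PD14 libraries for these 3 genes, as for 5 of the 13 factors tested and 13.5% of all genes tested. The other two were Nr0b1 (10.87, 7.43 and 7.92 FPKM) and Sall4 (1.53, 1.26 and 1.18 FPKM), which were not called either. Sp1, with 23.6, 24.6 and 24.9 FPKM, had a PD16 difference of 0.08 in the other direction (limma, adjusted p = 0.445). Foxl2 (given above) and Nr5a2, with 119, 118 and 134 FPKM (PD16 difference 0.17, limma, adjusted p = 0.245), were the most abundant of the list. Sox9, an activator of Amh in the testis, was under the filter with at most 1.08 FPKM in a library.

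Of 8 ligand genes known to act on Amh, Bmp15 was called. It had 48.2, 47.6 and 53.1 FPKM on PD14, 61.02, 63.82 and 72.05 on PD15, and 69.2, 66.2 and 60.8 on PD16. Like Amh, it was higher on both later days than on PD14 without overlap. So were 10.4% of the genes tested on PD15 and 15.0% on PD16. The rise of Bmp15 was 0.39 from PD14 to PD16 (limma, adjusted p = 0.0331), and the PD15 difference was 0.39 (limma, adjusted p = 0.0745). Bmp15 is itself an oocyte marker, and 16 of the 20 oocyte markers had a lower mean on PD16 than on PD14, where 52.2% of all genes tested were higher. The other members were Gdf9, Inhbb and Inhba, which had 87.0, 44.0 and 39.8 FPKM (PD16 difference -1.04, limma, adjusted p = 0.0637), and Bmp2, Bmp4, Bmp6 and Bmp7, with day means of 6.09 to 16.5 FPKM and no call.

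Of 11 genes of the FSH response and of steroid synthesis that AMH is known to act on, Cyp19a1 and Kitl were called, both downward on PD16. Cyp19a1, the aromatase that makes estradiol, had 6.61, 3.77 and 4.95 FPKM on PD14, 2.84, 2.47 and 3.51 on PD15, and 2.54, 2.69 and 1.89 on PD16. Its libraries on both later days were below those of PD14, which was so for 10.2% of the genes tested on PD15, and it fell by 0.84 from PD14 to PD16 (limma, adjusted p = 0.0316). With 0.01 in place of 1 added to the FPKM, the log2 change was -1.08. The direction differs from the qRT-PCR of the study, which reported a rise of this gene on PD15 and PD16. Kitl, the granulosa cell ligand of the oocyte receptor KIT, had 61.0, 53.5 and 52.1 FPKM on PD14, 45.9, 47.9 and 60.8 on PD15, and 40.8, 42.0 and 33.9 on PD16, and fell by 0.50 (limma, adjusted p = 0.0494), a call kept in 5 of 12 other settings of the processing (limma, adjusted p up to 0.117). The most abundant genes of the list were Inha, Hsd3b1 (1785, 1291 and 1273 FPKM by day mean), a steroid dehydrogenase of theca and interstitial cells, and Hsd17b1 (176, 147 and 147 FPKM), which completes estradiol synthesis, and none of them was called. Fshr and Lhcgr, the receptor of luteinizing hormone (14.4, 10.4 and 9.78 FPKM), were not called either. Cyp11a1 had means of 46.8, 25.2 and 32.8 FPKM, with no call (PD15 difference -0.91, limma, adjusted p = 0.243). Its PD15 libraries were all below those of PD14, as for 10.2% of the genes tested. The qRT-PCR of the study reported a rise of Cyp11a1 too on PD15 and PD16. Cyp17a1, Star and Ccnd2, the remaining genes, had no call.

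**Figure D4:**
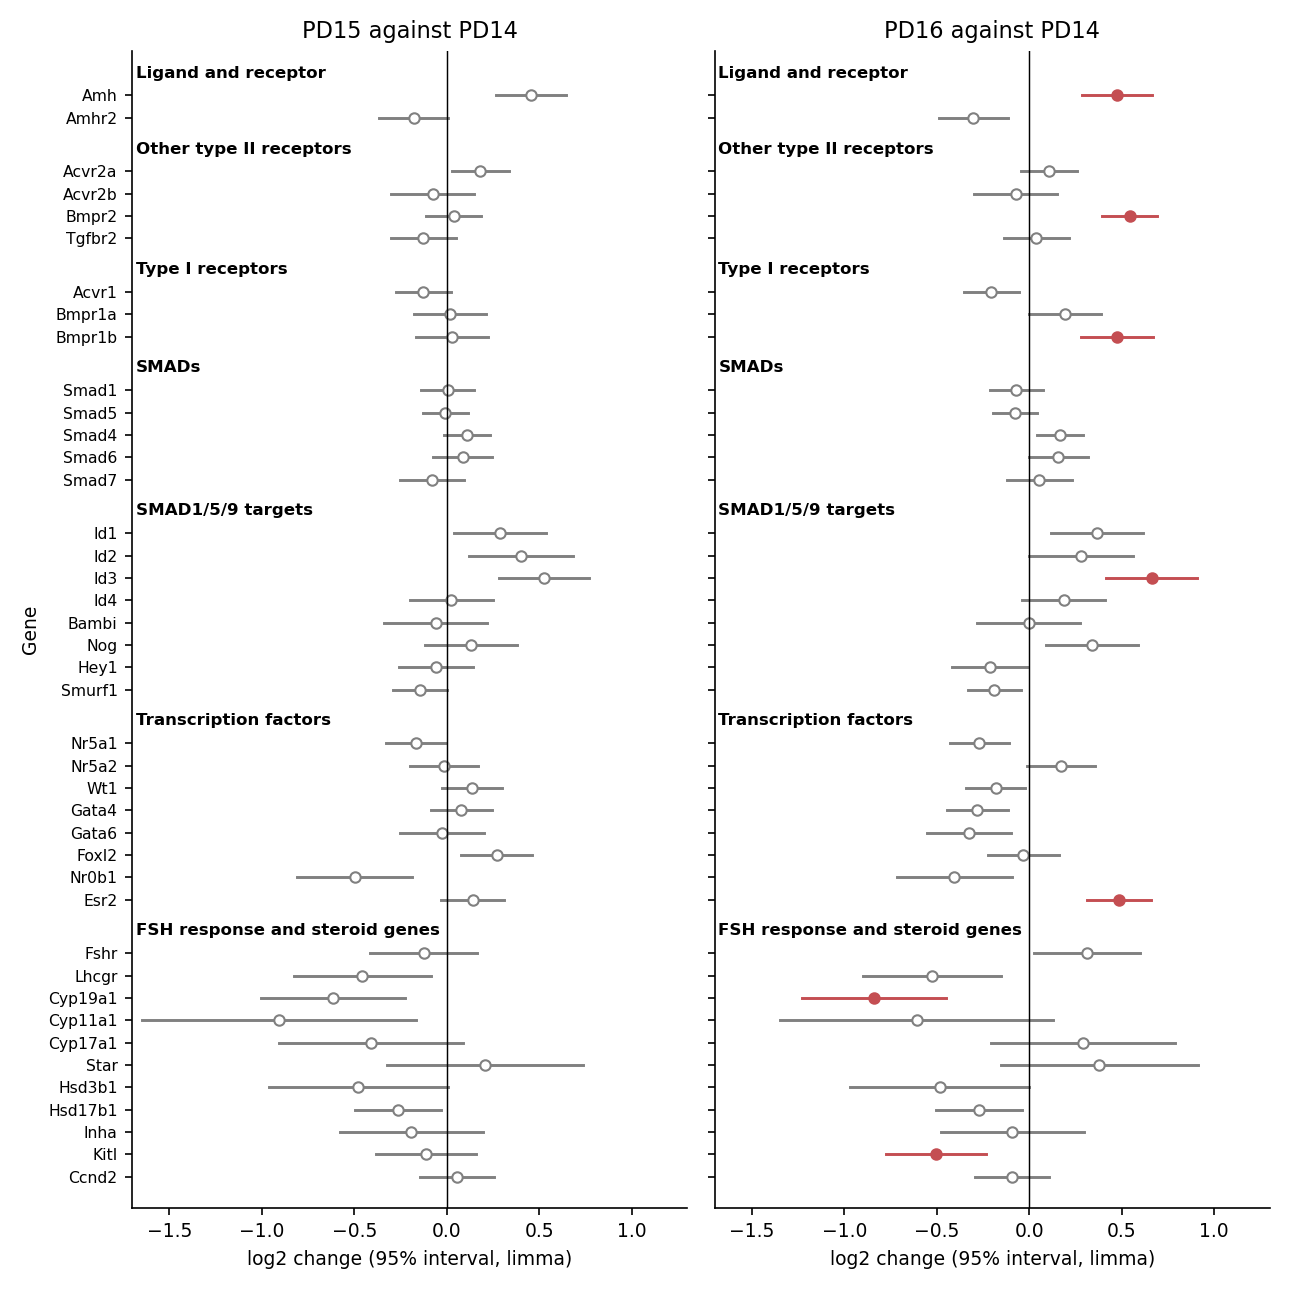
Log2 change from PD14 to PD15 (left) and to PD16 (right) of Amh, Amhr2 and pathway genes, as points with 95% intervals from limma on log2(FPKM + 1), where filled red points passed an adjusted p of 0.05. No gene shown is filled on PD15, and on PD16 the filled points are Amh, Bmpr2, Bmpr1b, Id3, Esr2, Cyp19a1 and Kitl, while the ligands that act on Amh (among them Bmp15, which was called), the convertases and some uncalled transcription factors are not drawn.

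Of the pathway calls on PD16 against PD14, that of Bmpr2 was kept in all fits that left out a library, and the others were lost in some. Without PD16 replicate 1, 92 genes of all those tested were called between PD14 and PD16, and Bmpr2 was the 1 pathway gene among them. Of the 9 fits that each left out a library, Esr2 was called in 8 and Id3 in 7 (also lost without PD14 replicate 3, limma, adjusted p = 0.0696). Bmpr1b was called in 6, lost further without PD14 replicate 1 (limma, adjusted p = 0.0744) or PD14 replicate 3 (0.0818). Cyp19a1 was called in 4, lost further without PD14 replicate 1, PD14 replicate 3, PD16 replicate 2 or PD16 replicate 3 (limma, adjusted p up to 0.1003). Bmp15 was called in 3, without PD15 replicate 1, PD15 replicate 3 or PD16 replicate 3 (in the others limma, adjusted p up to 0.113), and Kitl in 1, without PD15 replicate 3 (in the others limma, adjusted p up to 0.132). The log2 changes kept their sign in all of these fits. Under 12 other settings of the processing, the call was kept in 12 for Bmpr2, 11 for Esr2, 10 for Id3 and for Bmp15, 9 for Cyp19a1 and 8 for Bmpr1b.

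The neighbours of both genes in the genome were also examined. Sf3a2, a splicing factor gene, ends 318 bp upstream of Amh on the same strand, and had means of 25.8, 30.4 and 29.6 FPKM, with differences of 0.23 on PD15 (limma, adjusted p = 0.208) and 0.19 on PD16 (limma, adjusted p = 0.170). Jsrp1, on the other strand 847 bp downstream of Amh, had 10.3, 14.4 and 10.9 FPKM. Sp1, which ends 8962 bp upstream of Amhr2, had 23.6, 24.6 and 24.9 FPKM, and the long noncoding Gm26518, on the other strand 892 bp downstream, had 0.110, 0.117 and 0.152 FPKM. Both Amh and Amhr2 were above their neighbours in every library.

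The genes whose pattern over the 9 libraries was most like that of Amh, by Pearson's r of log2(FPKM + 1) among 15494 genes, were 2610020C07Rik (r = 0.974), Ttc19 (0.972), Tmem229b (0.960), Pxk (0.956) and Map2k1 (0.954). Ttc19, a mitochondrial protein gene, had means of 8.43, 10.2 and 10.4 FPKM, and Map2k1, which encodes the kinase MEK1, had 23.5, 33.8 and 33.6 FPKM. Both were lower on PD14, with similar means on the later days. For Amhr2 the most similar genes were Capns1 (r = 0.973), Krt8 (0.972), Pnkd (0.970), Erbb2 (0.969) and Thra (0.962). Krt8, a keratin gene, had 23.3, 19.7 and 16.4 FPKM, and Erbb2, a receptor of the EGF family, had 28.3, 23.0 and 19.4 FPKM, so both stepped down day by day in their means. These r were the highest of many over few libraries and are descriptions without a test.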

How the data were processed

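RNA of ovaries of Kunming mice on PD14, PD15 and PD16 (3 libraries a day) was sequenced by Novogene from NEBNext Ultra libraries, a kit without strand marking. The authors deposited FPKM in 1 table for each library. Per the labels, processing used HISAT2 2.0.5 and mm10, and the counting tool and annotation are not given in the sources used here. Groups followed the day in the labels. The replicates are called independent ovaries, and p-values measure the spread between these libraries. No 2 libraries held identical values.

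FPKM was used as deposited, as log2(FPKM + 1). Those genes that exceeded a mean FPKM of 1 on any of the days (15495 of 52025) were tested by limma with an intensity trend, with calls at an adjusted p under 0.05. Depth was estimated from the low FPKM and GENCODE M21 exon lengths (50376 genes matched), and 95.1% to 96.1% of the low values were whole fragments within 0.01. Single values were compared by exact permutation. The method was tested on simulated data. The members, the gene lists and the tests were chosen with earlier results of these data known. Genes named were the members, the called and most abundant genes of the pathway lists (every gene of lists up to 6), the 5 most abundant ligands, the 5 most similar genes, neighbours and defining markers, and other listed genes were added after their values were seen. Not every listed gene is given with its values, and 1 gene was left out of the lists and is not reported here. Promoter bases came from RefSeq. A correlation planned over all 9 libraries was computed within PD15 and PD16, since PD14 stood apart in Amh. Alternatives varied the pseudocount, the filter, the scaling, limma's options and a block for the replicate number, or left out each library in turn. Software comprised limma 3.58.1 in R 4.3.3, and, in Python 3.11.15, SciPy 1.17.1, pandas 2.3.3, NumPy 2.4.6 and Matplotlib 3.10.9.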

Additional observations from a re-analysis of the deposited data

How the results depend on the processing

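The cause of the changes below was not tested. The Amh difference between PD15 and PD14 passed the threshold (limma, adjusted p) with median-ratio scaling (0.45, adjusted p = 0.0476), limma without trend (0.45, 0.0489) and array weights (0.47, 0.0291). Its PD16 call was lost with scaling to TPM (0.45, 0.0588) and without the filter (0.47, 0.0623), which tests more genes. Over the 3 days the adjusted p of Amh became 0.0746 with TPM, 0.0923 without the filter and 0.0590 with a replicate block. Amh on PD16 against PD15 changed sign with array weights (-0.018), without PD15 replicate 3 (-0.040) and without PD16 replicate 1 (-0.011). The r of Amh and Amhr2 changed sign with TPM (0.339) and without PD16 replicate 1 (0.0197). With the marker median, the PD16 differences relative to granulosa markers were 0.28 (Amh) and -0.50 (Amhr2).

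Genes called on PD15 against PD14 (105) became 29 without the filter, 63 above 5 FPKM, 184 with array weights and 46 with the 2 days alone. On PD16 against PD14 (659) they became 281 with TPM, 172 without the filter and 323 with the 2 days alone. On PD16 against PD15 (113) they became 70 with TPM, 24 without the filter and 237 with array weights. Pathway genes called were 1 each (TPM, array weights) on PD15, 2 (no filter) and 4 (2 days alone) on PD16, and 2 (above 5 FPKM) and 3 (array weights) between PD16 and PD15.

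Deviations of same-numbered libraries correlated at -0.214 to 0.159 over genes, and those of differently numbered libraries of different days at -0.196 to 0.211. No pairing by replicate number was apparent, though 3 libraries a day cannot show that none exists. With the replicate block, 24, 227 and 56 genes were called in the 3 comparisons and 0, 2 and 1 pathway genes. The block kept the PD16 call of Amh (adjusted p = 0.0446) and made no call of Amhr2.

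With each library left out in turn, Amh differed by 0.40 to 0.51 on PD15, 0.44 to 0.51 on PD16 and -0.040 to 0.075 between them, and Amhr2 by -0.24 to -0.14, -0.37 to -0.25 and -0.18 to -0.07. The adjusted p over the days was 0.0276 to 0.104 for Amh and 0.125 to 0.305 for Amhr2. Genes called were 3 (without PD15 replicate 1) to 92 on PD15, 92 (without PD16 replicate 1) to 660 on PD16 and 14 (without PD15 replicate 1) to 125 between them, and pathway genes 0 to 0, 1 to 8 and 0 to 3. The log2 ratio of Amh to Amhr2 was 0.70 to 0.88, Amh relative to markers 0.49 to 0.61, Amhr2 relative to markers -0.30 to -0.15 and r -0.348 to 0.0197.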
